A study of Mus musculus with 2 samples.

Results

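Binding of CTCF around 5 genes of the Nodal pathway, Nodal, Tdgf1, Lefty1, Lefty2 and Smad3, was examined in mouse embryonic stem cells (ESCs). The genes were chosen by their place in the pathway and make up 5 of the 22367 protein-coding genes of GENCODE M1 on mm9. For each gene the gene body and 100 kb on either side were taken as its region. Of the 33788 deposited CTCF peaks, 49 have their summit in at least 1 of these regions. The cells were R1/E ESCs, a mouse line kept on gelatine with serum and LIF, in which a stably integrated BAC expresses CTCF fused at its C terminus to the GFP-containing LAP tag. The source of the tagged protein is therefore a transgene, and the GFP-antibody does not see untagged CTCF. The number of clones in the line is not given in the sources used here. Chromatin was crosslinked with 1% formaldehyde, sheared to about 500 bp and precipitated from this line with a goat antibody against GFP (the CTCF library) or with a goat IgG isotype control (the IgG library, which its label also calls input DNA). There is 1 library per antibody, so no replicate error can be given, and every interval and p-value reflects the counting error of this pair of libraries alone. The CTCF library holds 8391191 aligned tags of 35 bp and the IgG library 7988889. No expression data were used, so the labelled cell type was not checked against markers, and nothing below measures how strongly the genes were transcribed.

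Nodal is a secreted ligand of the TGF-beta family. It signals through activin receptors together with the coreceptor Cripto, the product of Tdgf1, and its signal is carried to the nucleus by Smad2 and Smad3. Lefty1 and Lefty2 are secreted inhibitors of Nodal and are themselves induced by the pathway, which forms a feedback loop that is active in ESCs and in the early embryo. CTCF is a zinc-finger protein that binds a long motif with a direction. It is known to halt cohesin on chromatin, and loops between CTCF sites most often have motifs that point toward each other.

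The sequences under the sites nearest to the genes, and under the strongest site of each region, are shown first, since their motif and its direction recur in the results below. Each run is written 5′ to 3′ on the strand of the motif, with the best 19-base match to the CTCF matrix in capitals and 15 bases of the mm9 genome on either side. The matrix was built from 192 CTCF sequences of the ESC motif list in the authors' supplement, not from the deposited CTCF peaks. A match was called a motif at a p-value of at most 1e-05. A site is said to have a motif where a match lies wholly within 150 bp of the summit, and its best match there sets its direction. For a named site without such a motif, a motif farther out in the same peak is given where present. Other motifs in a peak, which can lie on the other strand, are not all listed.
Nodal, coding exon (chr10:60886143-60886191, plus strand): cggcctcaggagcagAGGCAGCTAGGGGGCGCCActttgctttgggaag
Nodal, nearest site upstream with a motif (chr10:60865413-60865461, minus strand): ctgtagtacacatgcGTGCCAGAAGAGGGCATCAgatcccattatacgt
Nodal, strongest site, downstream (chr10:60929053-60929101, minus strand): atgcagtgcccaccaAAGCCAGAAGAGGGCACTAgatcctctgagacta
Tdgf1, intron (chr9:110846983-110847031, minus strand): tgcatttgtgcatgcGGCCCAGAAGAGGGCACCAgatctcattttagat
Tdgf1, nearest site downstream (chr9:110825435-110825483, plus strand): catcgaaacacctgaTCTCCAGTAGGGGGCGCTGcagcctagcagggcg
Tdgf1, strongest site, upstream (chr9:110899899-110899947, plus strand): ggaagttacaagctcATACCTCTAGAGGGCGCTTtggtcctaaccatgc
Lefty1 and Lefty2, strongest site, upstream of both (chr1:182804292-182804340, plus strand): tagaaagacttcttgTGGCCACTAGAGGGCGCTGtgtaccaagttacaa
Between Lefty2 and Lefty1, nearer to Lefty2 (chr1:182831404-182831452, plus strand): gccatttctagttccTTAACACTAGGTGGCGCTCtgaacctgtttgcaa
Between Lefty2 and Lefty1, nearer to Lefty1 (chr1:182850018-182850066, plus strand): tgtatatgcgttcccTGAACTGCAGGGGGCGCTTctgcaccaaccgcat
Lefty1, 3′ UTR, motif only (chr1:182868275-182868293, minus strand): GCGCCTCCAGGGGCCAGCG
Smad3, intron (chr9:63557261-63557309, minus strand): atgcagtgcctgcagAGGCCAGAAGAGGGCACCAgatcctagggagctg
Smad3, nearest to the start (chr9:63609701-63609749, minus strand): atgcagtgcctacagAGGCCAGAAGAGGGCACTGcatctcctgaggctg
Smad3, strongest site, upstream (chr9:63697555-63697603, minus strand): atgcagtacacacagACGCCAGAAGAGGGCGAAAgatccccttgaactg

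CTCF peaks were dense around both Lefty genes and around Nodal and Tdgf1, and near the average around Smad3. The regions of Lefty2 and Lefty1 held 19 and 18 peaks, or 9.22 and 8.85 per 100 kb, more than in 99.6% and 99.4% of protein-coding genes. The regions of Tdgf1 and Nodal held 11 and 10 peaks, 5.33 and 4.82 per 100 kb. That is more than in 89.6% and 85.8% of genes, respectively. With a score of at least 100 the Tdgf1 region kept 5 peaks and the Nodal region 8, so the order of these genes depends on the score threshold. With 50 kb on either side the order stayed, with 6 peaks for Tdgf1 and 4 for Nodal. The longer Smad3 region held 8 peaks, 2.57 per 100 kb, close to the median over all genes of 2.26 (quartiles 0.947 and 3.77). The regions of Lefty1 and Lefty2 overlap, so that 17 of their 20 peaks count for both genes, and these neighbours are not independent of each other.

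**Figure D1:**
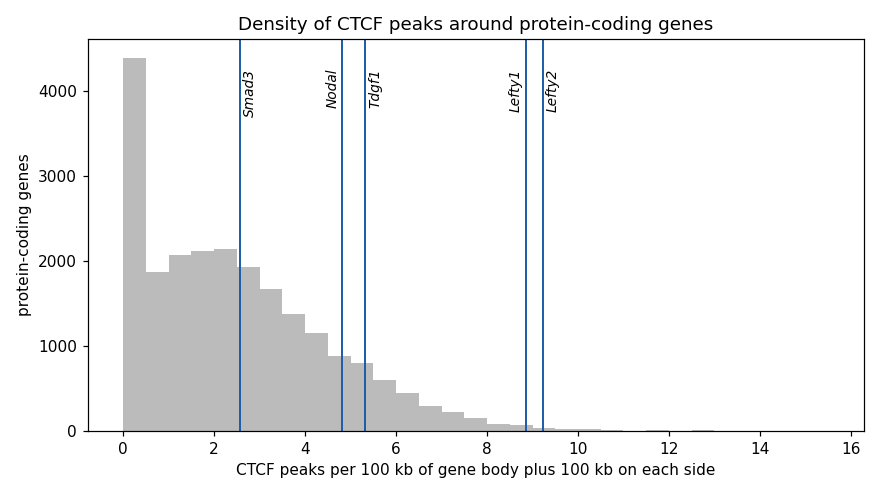
Number of protein-coding genes (y axis) by the density of CTCF peaks in the gene body plus 100 kb on each side (x axis, peaks per 100 kb). Blue lines mark the 5 genes; Smad3 at 2.57 sits near the middle of the distribution, and Lefty1 and Lefty2, at 8.85 and 9.22, in its far tail.

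The peaks were called by the authors from the same tags, and their strength is given here as a description. In the 49 peaks lay 1519 CTCF tags and 145 IgG tags, which at equal depth is 9.97-fold more in the CTCF library (exact 95% interval 8.41 to 11.9). Between 12 and 80 CTCF tags were counted per peak, against at most 11 IgG tags, and 8 of the peaks held no IgG tag. The ratio over the peaks of a region was 16.1 for Nodal (338 against 20 tags, 10.3 to 26.7) and 8.57 for Tdgf1 (333 against 37, 6.09 to 12.4). It was 9.54 for Lefty1 (591 against 59, 7.29 to 12.7), 9.38 for Lefty2 (601 against 61, 7.20 to 12.4) and 8.83 for Smad3 (204 against 22, 5.67 to 14.4). The intervals of the 5 genes overlap. Within 150 bp of the summits the ratios were higher and the order partly changed, at 90.9 for Nodal (24.8 to 756), 30.5 for Smad3 (11.6 to 114), 16.1 for Tdgf1 (9.02 to 31.7), 15.7 for Lefty1 (9.91 to 26.5) and 13.8 for Lefty2 (8.96 to 22.3). There the intervals of Nodal and Lefty2 do not overlap. At each Nodal summit the IgG library had 0 or 1 tag in this window, so the ratio of 90.9 rests on very few IgG tags. The windows are centred on summits set by the same CTCF tags, so this gap is a description only.

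The peak score, which is -10 times the log10 of the MACS p-value, had a median of 154.43 in the Nodal region, 152.835 in that of Lefty1 and 148.11 in that of Lefty2. It was lower for Smad3, at 114.68, and lowest for Tdgf1, at 76.47. Over all peaks the median score was 117 (quartiles 74.85 and 181.905). The Tdgf1 region thus combined many weak peaks with a few strong ones, with scores from 54.05 to 494.03. The median height of the summits in tags showed the same order for Nodal (18), Lefty1 (14.5) and Lefty2 (14), while Smad3 (11.5) and Tdgf1 (11) were both below the 13 of all peaks.

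**Figure D2:**
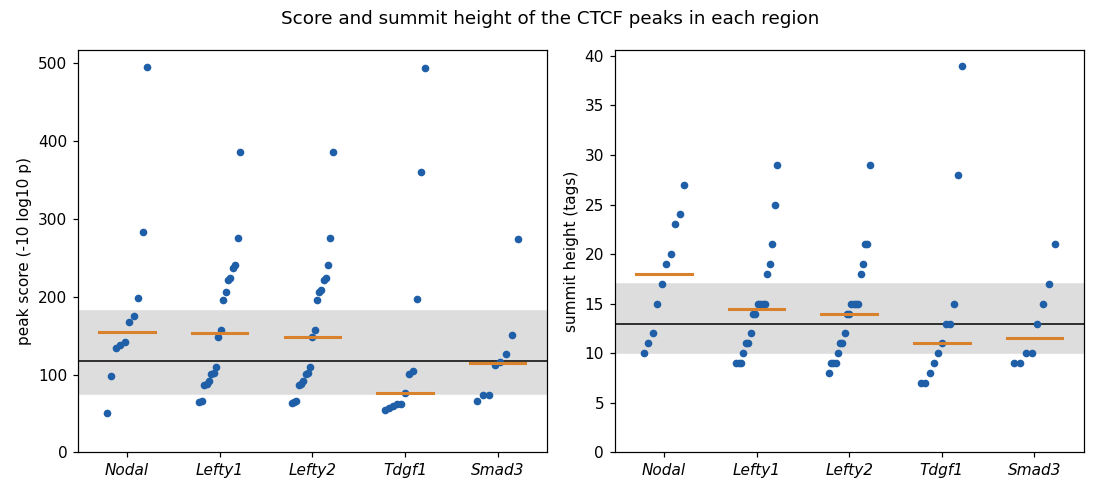
Score (left, -10 log10 p) and summit height (right, tags) of each CTCF peak in the region of each gene. Points are peaks, orange bars their medians, and the black line and grey band give the median and quartiles of all peaks; the Tdgf1 median score of 76.47 lies at the lower edge of the band, although the region also holds a peak of 494.03.

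Only the start of Lefty1 carried a peak within 1 kb, which makes 1 of 5 genes, where 7.91% of all protein-coding genes have a summit that close. The nearest summit was 337 bp upstream of the Lefty1 start, 1533 bp upstream of the Tdgf1 start, 3103 bp upstream of the Lefty2 start and 3942 bp upstream of the Smad3 start. For Nodal it lay 5455 bp downstream of the start, inside the gene. All 5 distances are shorter than the median over all genes, 15521 bp. A summit inside the gene body was found for Nodal, Lefty1, Tdgf1 and Smad3, 4 of the 5 genes, where 36% of all protein-coding genes have one. Gene length was not taken into account.

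Tags within 1 kb of each start, whether or not a peak was called, were compared between the libraries with an exact two-sided binomial test, with Benjamini-Hochberg adjustment over the 22367 genes. The test compares these libraries, not conditions, and uses the tags that also gave the peaks. At the Lefty1 start the CTCF library had 28 tags and the IgG library 5. This is a 5.33-fold excess at equal depth (2.03 to 17.7) with an adjusted p = 0.00158 in the exact test. At the Nodal start 17 CTCF tags stood against 4 IgG tags, a ratio of 4.05 (1.32 to 16.5), which missed the threshold of 0.05 after adjustment (exact test, adjusted p = 0.0677). The Lefty2 start had 14 against 5 tags (ratio 2.67, 0.907 to 9.46), the Tdgf1 start 15 against 6 (2.38, 0.873 to 7.49) and the Smad3 start 2 against 1 (1.90, 0.0991 to 112). None of these passed (exact test, adjusted p = 0.314, 0.357 and 1, respectively). So 1 of the 5 starts was called for CTCF, where 10.1% of all genes were. With 1 to 6 IgG tags per start, an excess of several fold could go undetected at this depth, as the upper limits of 9.46 for Lefty2 and 7.49 for Tdgf1 show. With 5 kb on either side of the start in place of 1 kb, all 5 genes passed, as did 26.7% of all genes.

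Outside the peaks, the CTCF library was still above the IgG library around 4 of the 5 genes. In the Nodal region without its peaks 1003 CTCF tags stood against 584 IgG tags, a ratio of 1.64 (1.48 to 1.81, exact test, adjusted p = 1.38e-20). The ratio was 1.60 for Lefty1 (1.45 to 1.78, exact test, adjusted p = 1.48e-19) and 1.61 for Lefty2 (1.45 to 1.78, exact test, adjusted p = 4.12e-20), from largely the same tags. Tdgf1 was lower at 1.33 (1.2 to 1.48, exact test, adjusted p = 3.47e-07). Around Smad3, where 1083 CTCF and 996 IgG tags remained, the ratio was 1.04 (0.949 to 1.13) and did not pass (exact test, adjusted p = 0.502). Such an excess is common, since 44.1% of all genes passed this test, and 26.5% passed in the direction of IgG. The small p-values reflect counting error and do not measure how unusual a region is. Over all genes the median ratio was 1.06 (quartiles 0.872 and 1.32), so the 4 genes lie above the upper quartile and Smad3 near the median. With 1 kb beside each peak also left out, the ratio was 1.55 for Nodal, 1.45 for Lefty1 and 1.44 for Lefty2. It fell to 1.17 for Tdgf1 (exact test, adjusted p = 0.0103) and was 1.00 for Smad3. The same 4 genes passed, as did 36.3% of all genes, so part of the excess lay within 1 kb of peaks. When both libraries were scaled by their tags outside peaks, Smad3 also passed with a ratio of 1.15 (exact test, adjusted p = 0.00196), as did 58% of all genes.

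**Figure D3:**
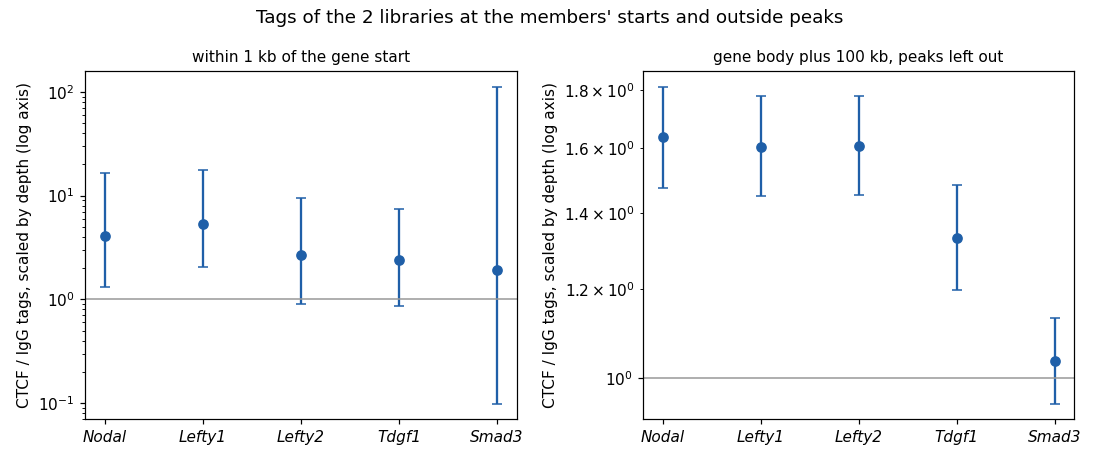
Ratio of CTCF to IgG tags at equal depth (y axis, log scale) within 1 kb of each gene start (left) and in the gene body plus 100 kb with the peaks left out (right). Points are ratios, bars exact 95% intervals for counting error, and the grey line marks equal counts; at the starts the intervals of Nodal and Lefty1 lie above 1, and outside peaks those of Nodal, Lefty1, Lefty2 and Tdgf1 do.

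The CTCF signal of Nodal, the ligand, was spread over 7 sites upstream, 1 in the gene and 2 downstream. Nodal lies on chr10 from 60880720 to 60888086 on the plus strand (ENSMUSG00000037171.6). The site inside the gene, on chr10 from 60885738 to 60886421, has its summit and its motif in a coding exon. It held 23 CTCF tags and 1 IgG tag (ratio 21.9, 3.56 to 902), with a score of 133.8 and a height of 19 tags. Its motif points along the gene, with a motif p-value of 2.78e-06, so the protein-coding sequence of Nodal itself contains the motif letters shown above. The nearest motif-bearing site upstream, 15386 bp before the start, had 34 CTCF and 5 IgG tags and a score of 138.34. A further peak 18060 bp upstream, with 25 CTCF tags and 1 IgG tag, is the only one of the 10 Nodal sites without a motif within 150 bp of the summit. It holds one on the minus strand 332 bp from the summit, with a motif p-value of 2.19e-08. The strongest site lay 48470 bp downstream of the start, between Eif4ebp2 and D830039M14Rik. Its score of 494.87 ranks 263 of all peaks, from 80 CTCF and 9 IgG tags. Its motif near the summit is on the minus strand, with 26 CTCF tags within 150 bp. The same peak also holds plus-strand motifs at 60929549 and 60929846. The latter has a motif p-value of 2.25e-07 and 29 CTCF tags within 150 bp, so this peak has no single motif direction. A group of 4 peaks between 73773 and 81609 bp upstream, in the neighbouring gene X99384, had scores from 98.37 to 283.53. Their motifs point in both directions, 2 on the plus and 2 on the minus strand.

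Just upstream of the Nodal start a motif was found without a peak. It lies on the minus strand of chr10 from 60880335 to 60880353, 376 bp before the start, and reads ACTCCAGAAGAGGGCGCCA, with a p-value of 6.14e-08 that is lower than that of the motif in the Nodal exon. Within 150 bp of it there were 3 CTCF tags and no IgG tag. Of the 35-base sequences in this window, 33% occur at a single place in the genome, and in the whole Nodal region 3 of 1945 tags of both libraries come from a sequence that occurs more than once, so binding at this motif could be counted only in part. The same 19 letters occur again at chr10 60985602, still in the Nodal region, with 7 CTCF tags and 1 IgG tag. They also occur at chr1 182729858 in the Lefty2 region, with 1 CTCF tag and no IgG tag.

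Tdgf1, which encodes the coreceptor, lies on chr9 from 110842114 to 110848662 on the minus strand (ENSMUSG00000032494.8). Both sites nearest to it were weak. The peak 1533 bp upstream of its start had 12 CTCF tags and no IgG tag, a score of 57 and no motif. The peak in its intron, 1555 bp past the start, which was picked out after its values were seen, also had 12 CTCF tags and no IgG tag, for which the exact 95% interval of the ratio starts at 2.65. It had a score of 62.67 and a motif with a p-value of 4.76e-08 on the minus strand, which is the strand of the gene. Strong sites lay farther out on both sides. The site 16.725 kb beyond the end of Tdgf1 had 64 CTCF and 11 IgG tags (ratio 5.54, 2.90 to 11.6) and a score of 196.93. The strongest, 51224 bp upstream, had 80 CTCF and 8 IgG tags (ratio 9.52, 4.61 to 22.8), a score of 494.03 that ranks 265 of all peaks and a height of 39 tags, the highest of the 49 sites. Of the 11 sites, 7 had a motif, 4 of them on the plus and 3 on the minus strand.

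Lefty2 (chr1 from 182823239 to 182829234, ENSMUSG00000066652.5) and Lefty1 (chr1 from 182865153 to 182868531, ENSMUSG00000038793.8), the inhibitors, lie in tandem on the plus strand, 35.918 kb apart. Over the regions of both genes 20 peaks were found. Of these, 4 lay between the genes. Upstream of Lefty2 the strongest of the 20 had 61 CTCF and 5 IgG tags (ratio 11.6, 4.71 to 37.0), a score of 386.01 that ranks 818 and a height of 29 tags. It lay 18786 bp before the Lefty2 start and 60700 bp before that of Lefty1. Its motif had the lowest p-value of the 49 sites, 1.40e-10. The site nearest to the Lefty2 start, 3103 bp upstream, had 51 CTCF tags against 1 IgG tag (ratio 48.6, 8.33 to 1955) and a score of 275.28, with a best match near the summit that missed the motif threshold (motif p-value 1.53e-05). In the same peak a motif on the minus strand lies more than 150 bp from the summit, with a motif p-value of 4.44e-07. The body of Lefty2 held no summit.

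Of the 4 sites between the Lefty genes, the 2 with a motif near the summit had the higher scores, while heights and ratios did not follow that order. The first, 2136 bp behind the end of Lefty2, had 34 CTCF and 5 IgG tags (ratio 6.47, 2.52 to 21.2), a score of 148.11 and a height of 14 tags. The second, 11761 bp behind it, had 27 CTCF and 5 IgG tags (ratio 5.14, 1.95 to 17.1) and a score of 87.27. Its motif lies 425 bp from the summit, on the plus strand, with a motif p-value of 9.88e-07. The third, 20849 bp behind Lefty2, had 33 CTCF tags and no IgG tag, for which the exact 95% interval of the ratio starts at 8.05, a score of 240.39 and a height of 19 tags. The first and the third have their motifs on the plus strand, pointing toward Lefty1. The fourth, 337 bp before the Lefty1 start, had 20 CTCF and 2 IgG tags (ratio 9.52, 2.31 to 84.0), a score of 92.26 and a height of 14 tags. All tags between the genes came to 314 in the CTCF library and 119 in the IgG library (ratio 2.51, 2.03 to 3.13). With the peaks left out, 202 and 107 remained (ratio 1.80, 1.41 to 2.29). A count in windows of 300 bp, made without the peak list, gave 6 windows past a p-value of 1e-05 between the genes, all of them in these peaks. Across the genome 0.451% of windows passed.

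The peak at the Lefty1 start is shown with its sequence, since it is the only one that reaches a start of the 5 genes. The 200 bases around the summit, chr1:182864716-182864915 on the plus strand, end 238 bp before the annotated start. They hold 6 CpG dinucleotides and 55% G and C. The best match to the matrix, in capitals and read on the minus strand, has a p-value of 4.34e-04 and is below the threshold.
Lefty1, summit upstream of the start: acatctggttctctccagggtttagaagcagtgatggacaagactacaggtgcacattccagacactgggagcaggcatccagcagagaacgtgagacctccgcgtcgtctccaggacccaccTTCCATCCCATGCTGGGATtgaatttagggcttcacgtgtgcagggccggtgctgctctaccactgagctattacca

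The other end of Lefty1 carried a site as well. Its summit lay 3218 bp past the start, in the 3′ UTR, with 25 CTCF and 6 IgG tags (ratio 3.97, 1.59 to 11.8) and a score of 100.65. The motif there, with a motif p-value of 5.10e-06, is on the minus strand, against the direction of the gene. Downstream of Lefty1 the nearest peak, 38354 bp past the start in an intron of Tmem63a, was weak, with 14 CTCF tags against 1 IgG tag (ratio 13.3, 2.03 to 564) and a score of 64.32. Between 41554 and 87445 bp past the Lefty1 start 6 further peaks followed in and behind Ephx1, with scores from 66.26 to 237.12. A pair of them, with summits at 182910829 and 182952598 and 41.769 kb apart, have nearly the same sequence, since the 49 bases around their motifs differ at 1 base. They had 15 against 3 and 43 against 5 tags of the CTCF and IgG libraries.

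Smad3, the signal transducer, lies on chr9 from 63494574 to 63605801 on the minus strand (ENSMUSG00000032402.6). Its long body held 1 peak, in an intron 48609 bp past the start, with 15 CTCF tags and 1 IgG tag (ratio 14.3, 2.20 to 601) and a score of 66.56. The site nearest to its start, 3942 bp upstream, had 31 CTCF and 4 IgG tags (ratio 7.38, 2.61 to 28.8) and a score of 126.31. The strongest, 91773 bp upstream, had 44 CTCF tags against 1 IgG tag (ratio 41.9, 7.14 to 1692) and a score of 273.68. On the other side the nearest site, 36.33 kb beyond the end of Smad3 in Aagab, had 21 CTCF and 3 IgG tags (ratio 6.66, 1.99 to 34.9) and a score of 73.4. Of the tags of the CTCF library in the Smad3 region 15.9% lay in peaks, against 25.2% for Nodal, 28.9% for Tdgf1, 36.8% for Lefty1 and 36.6% for Lefty2. Over the bodies of the genes the ratio was 1.09 for Smad3 (0.939 to 1.27) and 2.63 for Nodal (1.64 to 4.33), intervals that do not overlap. Those of Lefty1 (1.98, 0.960 to 4.33), Lefty2 (1.85, 1.00 to 3.54) and Tdgf1 (1.95, 1.1 to 3.58) overlap with both. Peaks inside the bodies were included in these counts. The peak in the Nodal exon supplied 23 of the 69 CTCF tags and 1 of the 25 IgG tags of that gene. The gap between Nodal and Smad3 therefore rests in part on a peak called from the same tags and is a description only.

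**Figure D4:**
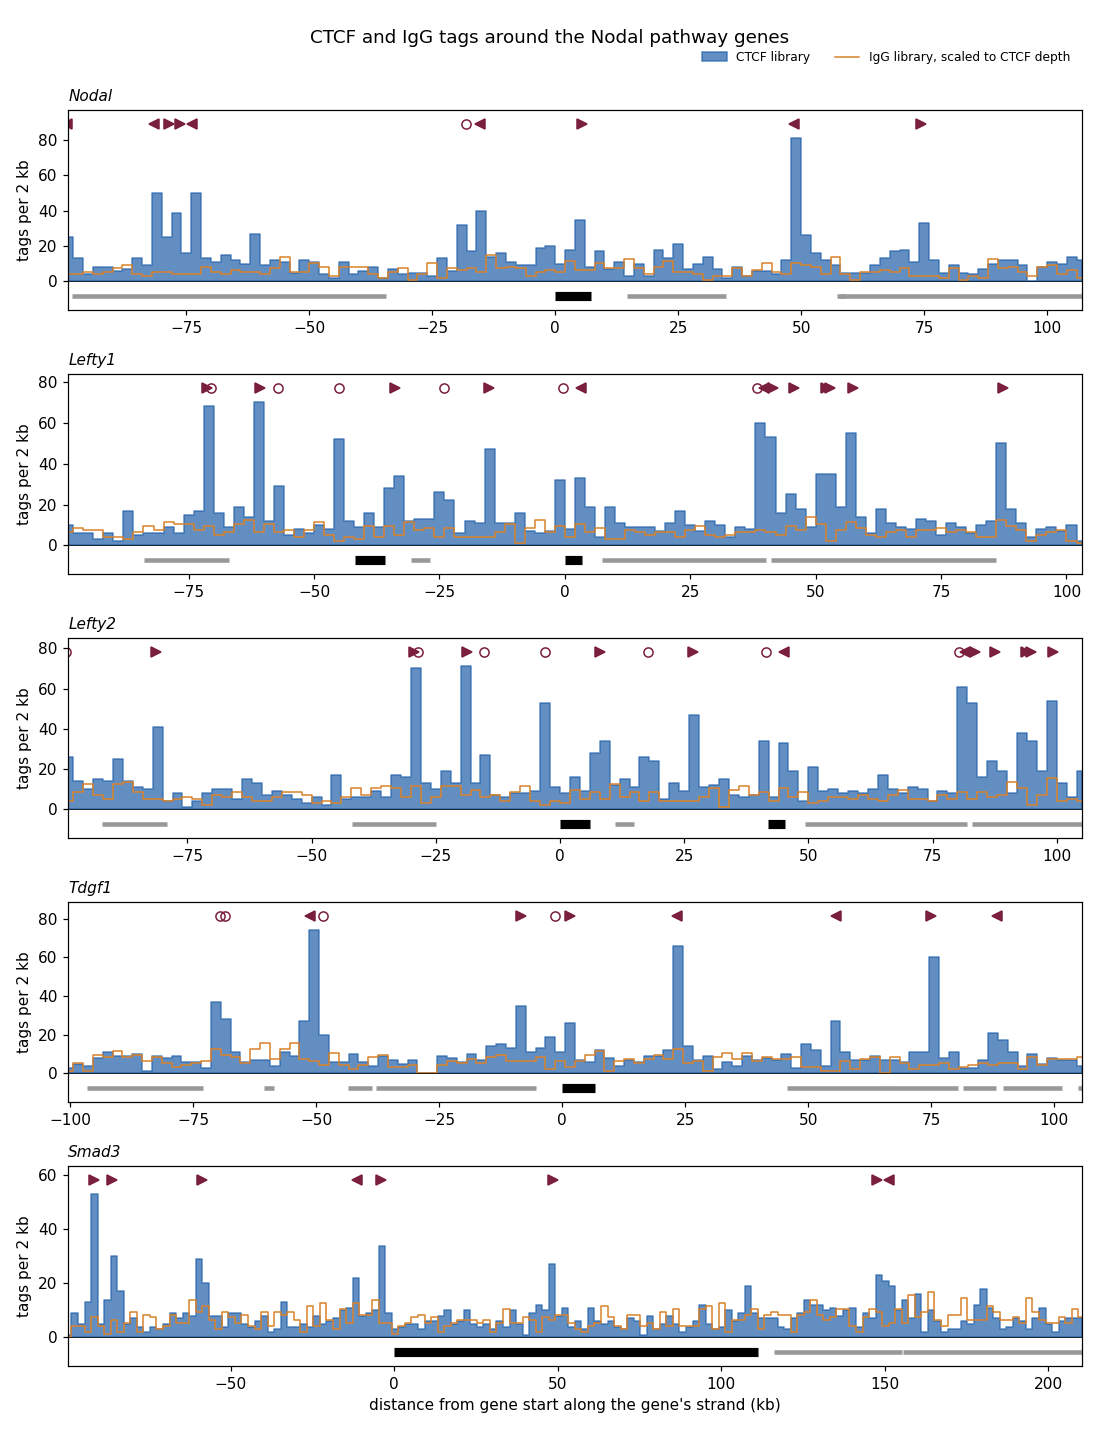
Tags per 2 kb (y axis) along the region of each gene (x axis, kb from the gene start in the direction of the gene), for the CTCF library in blue and the IgG library, scaled to the CTCF depth, as an orange line. Triangles mark CTCF peaks and point in the direction of the motif along the gene, open circles are peaks without a motif within 150 bp of the summit, black bars are the 5 genes and grey bars other protein-coding genes; Lefty1 and Lefty2 lie in a row of sites whose triangles mostly point the same way, and the Smad3 body is almost free of sites.

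A motif was found at 37 of the 49 sites, or 75.5% (95% Wilson interval 61.9 to 85.4), against 72.6% of all summits. By gene these were 9 of 10 sites for Nodal, 7 of 11 for Tdgf1, 12 of 18 for Lefty1, 12 of 19 for Lefty2 and 8 of 8 for Smad3. In all, 21 motifs were on the plus and 16 on the minus strand, where 49.9% of all motif-bearing summits are on the plus strand. The Lefty genes and Smad3 were uneven. Of the 13 motifs in the joined Lefty regions 11 were on the plus strand, that of both genes. The 2 on the minus strand were the one in the Lefty1 3′ UTR and that in a UTR of Tmem63a. Around Smad3 6 of 8 motifs were on the minus strand, again that of the gene, while Nodal had 4 on the plus and 5 on the minus strand. Counting a motif anywhere in the peak, an alternative chosen after seeing the data, 42 of the 49 sites had one, against 81.3% of all peaks, and the joined Lefty regions had 13 on the plus and 4 on the minus strand. The added minus-strand motifs lie upstream of Lefty2. No test was made of these counts, since sites of 1 region are not independent.

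The nearest motif-bearing sites on either side of a gene pointed toward each other for Lefty1 and Tdgf1, 2 of the 5 genes, where 27.7% of all genes have such a convergent pair. For Lefty1 the pair consisted of the site with a score of 240.39 between the Lefty genes and the site with a score of 195.73 at Tmem63a, 54.697 kb apart. For Tdgf1 it consisted of the sites with scores of 196.93 and 100.79, 31.58 kb apart. Nodal lay between minus-strand motifs 63.856 kb apart, Lefty2 between plus-strand motifs 26.917 kb apart, and Smad3 between minus-strand motifs 151.499 kb apart. Only the best motif of a site was used for these pairs. The downstream site of the Nodal pair also holds motifs on the plus strand, farther than 150 bp from its summit. Counting only peaks with a score of at least 100 made the pair around Smad3 convergent and left the other 4 as they were. Counting a motif anywhere in the peak made the pair around Lefty2 divergent, since the peak 3103 bp upstream then enters with its minus-strand motif. These are positions of motifs under peaks, and no contact between sites was measured.

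The motifs around Smad3 share a core. The letters CCAGAAG, which stand at the left of the motif, were found in the motif of 7 of the 8 Smad3 sites. They were found at 2 of the 9 motif-bearing sites of Nodal, 1 of 7 of Tdgf1, 1 of 12 of Lefty1 and 1 of 12 of Lefty2, and in 22.8% of motif-bearing summits overall. The string was chosen after the sequences had been seen, and was read on the strand of the motif. The likeness goes past the motif at some sites: the 49 bases printed above for the Smad3 intron and for the site nearest to the Smad3 start differ at 10 bases, as do those for the latter and for the strongest Nodal site. As background, CCAGAAG is part of the CTCF motif that B2 short interspersed repeats carry in rodents. No repeat annotation was used here, so whether these sites lie in such repeats was not tested.

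Most motifs around the 5 genes had no peak. Of 250 motifs in the regions at a p-value of 1e-05, 55 lay in a peak, which is 22%, against 12.5% of all motifs in the genome. The other 195 had a median of 1 CTCF tag within 150 bp and at most 9. The share in peaks was 40% for Lefty1 and 38% for Lefty2, 19.7% for Nodal, 17.2% for Smad3 and 16.1% for Tdgf1. Of the 33 motifs at a p-value of 1e-07, 19 lay in a peak, where 50.4% do over the genome. At these 19 the CTCF library had 10 to 32 tags within 150 bp, with a median of 20, and the IgG library at most 2. At the 14 without a peak it had 0 to 9, with a median of 1. Since the peaks were called from these tags, the gap between both ranges is a description only. CCAGAAG was present in 12 of the 14 without a peak and in 8 of the 19 with one. Its share among all such motifs of the genome, in or outside peaks, was not counted. As the string was chosen after the sequences had been seen, no difference is read from these counts. At 6 of the 14, fewer than 60% of the 35-base sequences within 150 bp occur once in the genome, while at the 19 occupied motifs at least 88.3% do. For these 6, how much of the missing signal comes from tags that cannot be placed was not tested. The others include motifs 89696 bp upstream of Smad3 and 56533 bp inside it, where all 35-base sequences are unique and no CTCF tag was counted.

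**Figure D5:**
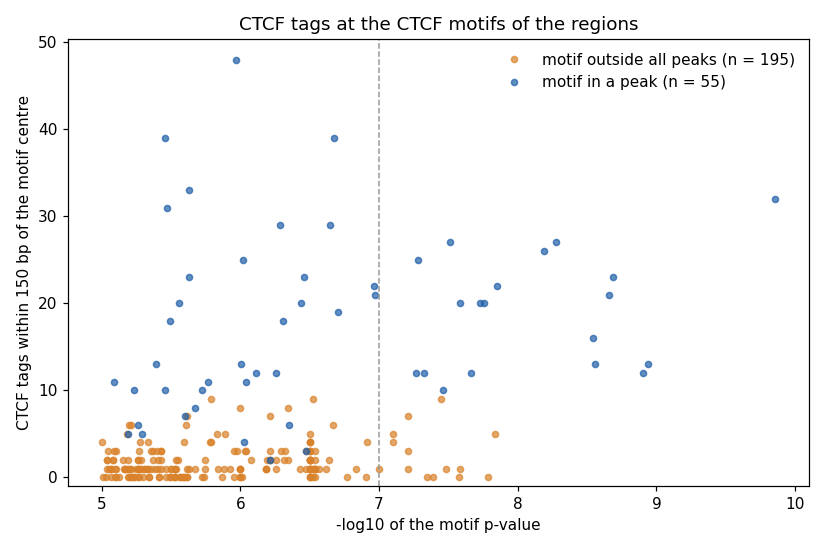
CTCF tags within 150 bp of each of the 250 CTCF motifs in the regions (y axis) by the strength of the motif (x axis, -log10 of its p-value). Blue points lie in a peak (55 motifs), orange points outside all peaks (195 motifs), and the dashed line marks a p-value of 1e-07; past it, the orange points stay at 9 tags or fewer and the blue points start at 10.

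Beyond the 5 genes, the pathway was followed in a list of 33 genes, which contains them. CTCF exceeded IgG within 1 kb of the start at 4 of the 33 (exact test, adjusted p at most 0.05), and IgG exceeded CTCF at 0 of them in the same test. Without the 5 genes the count was 3 of 28, near the 10.1% of all genes. Besides Lefty1, these were Dand5, a further secreted Nodal inhibitor, Eomes, a transcription factor that Nodal signalling induces, and Pcsk6, a protease that processes Nodal. Dand5 had 24 CTCF and 4 IgG tags (ratio 5.71, 1.96 to 22.7, exact test, adjusted p = 0.00353) and a summit 603 bp from its start. Eomes had 19 CTCF tags against 1 IgG tag (ratio 18.1, 2.88 to 752, exact test, adjusted p = 0.000996), and Pcsk6 14 against 1 (ratio 13.3, 2.03 to 564, exact test, adjusted p = 0.0135), both without a peak at the start.

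By role, the starts called were 2 of the 5 inhibitors, 1 of the 8 nuclear partners and repressors and 1 of the 2 proteases, and 0 of the 5 ligands, 6 receptors and coreceptors, 4 Smads and 3 targets. A summit within 1 kb of the start was found at 2 of the 33 genes, Lefty1 and Dand5 (1 of 28 without the 5 genes, against 7.91% of all genes). A summit in the gene body was found at 19 of the 33, all 6 receptors and coreceptors among them (15 of 28 without the 5 genes, against 36% of all genes). A longer body has more room for a summit, and these counts take no account of gene length. Outside peaks 21 of the 33 passed in the direction of CTCF (17 of 28, against 44.1%), and 5, none of them among the 5 genes above, in that of IgG, against 26.5% of all genes. Convergent motifs flanked 12 of the 33 (10 of 28, against 27.7%), and 0 of the 4 Smads. In peak density T, the mesoderm factor Brachyury, with 5.29 peaks per 100 kb, Drap1, a repressor of Nodal signalling through Foxh1, with 5.44, and Dand5, with 6.0, were nearest to the median of the 5 genes, 5.33.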

How the data were processed

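CTCF-LAP chromatin of R1/E ESCs was sequenced on the Genome Analyzer II as 1 GFP-antibody and 1 IgG library. For each library the authors deposited aligned tags on mm9, 1 line per tag and a raw count of 1 each, without normalization. The aligner is not given in the sources used here. For the CTCF library the authors deposited MACS 1.4 peaks whose score is -10 log10 of the MACS p-value against IgG (lowest 50, p-value 1e-05), and a summit per peak whose signal is its height in tags.

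Computed here were all counts, ratios, motifs and tests, with numba 0.67.0, scipy 1.17.1, numpy 2.4.6, pysam 0.24.0 and pandas 2.3.3 in Python 3.11.15, and drawn with matplotlib 3.10.9. The CTCF library held 8391191 tags and the IgG library 7988889, with no repeated position and strand in either. Tags were moved by 92 bp (fragment length 185 bp at the 1000 highest-scoring peaks) and assigned to regions by that position, and peaks by their summit. Ratios were scaled by all tags and carry exact 95% intervals. Where IgG was 0, the lower limit of that interval is given. Exact two-sided binomial tests were adjusted by Benjamini-Hochberg over 22367 protein-coding genes (GENCODE M1), and called at 0.05. Windows of 300 bp were tested with Poisson probabilities and an effective genome of 1870000000 bp. The matrix used a pseudocount of 1, background frequencies of 0.29 (A, T) and 0.21 (C, G), and exact thresholds. Genome sequence was NCBI m37 (mm9).

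Simulated data over the 22367 genes gave calls for 46% of starts at 4-fold and 99% at 10-fold excess, and for 1 of 22167 unchanged starts. The excess was placed only at starts with at least 4 tags in both libraries together, which leaves out starts as sparse as that of Smad3. Unchanged starts were Poisson counts with equal rates at equal depth, so the 1 of 22167 gives no rate of false calls for the real libraries. All 176 planted motifs were found at place and strand. They were drawn from the same matrix and planted in random sequence only if they passed its threshold, so this checks the search and not its sensitivity at real sites.

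The members, gene list and tests were chosen with earlier results of these data known. Sites were named by rule: with more than 40 sites, for each gene the nearest to its start, the one with the highest score, the nearest on either side, and all sites between the Lefty genes. Sites with other roles in the text (clusters, unoccupied motifs, sites inside genes) were picked after their values were seen. Named list genes are those called at the start and the 3 nearest in peak density to the median of the 5 genes. Motifs were counted within 150 bp of summits. Alternatives varied the score threshold, flank, start window, scaling, tag minimum, the margin left out beside peaks, and motif threshold and distance.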

Additional observations from a re-analysis of the deposited data

How the results depend on the processing

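Of 82 recomputed values, 56 kept their direction and side of the threshold or stayed within the stated spread, 6 passed the threshold in addition, 20 moved and 0 reversed. The 49 peaks fell to 32 with a score of at least 100 and to 31 with 50 kb on each side, and the sites between the Lefty genes from 4 to 2 with a score of at least 100, by construction. The ratio over all peaks rose from 9.97 to 20.2 (14.7 to 28.3) within 150 bp of the summits. Starts called rose from 1 to 5 of the 5 genes with 5 kb on each side (5982 of all genes called, against 2252) and to 2 when scaled by tags outside peaks (2838 of all genes called), where Nodal reached an adjusted p of 0.0318 in the exact test. The cause of these changes was not tested. Sites with a motif fell from 37 to 18 within 50 bp of the summit. Keeping 1 tag per position and strand could change nothing, since none is repeated. No paired analysis was possible because each antibody has 1 library, and no library could be left out for the same reason. Counting motifs anywhere in the peak, chosen after seeing the data, gave 42 in place of 37 and turned the Lefty2 pair from both plus to divergent. Depth limits the starts, with 1 to 6 IgG tags each.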
